A study of Mus musculus with 12 samples.

Results

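Genes of fatty acid oxidation and targets of the nuclear receptor PPAR-alpha were followed in the livers of bile acid-fed Abcb4 knockout mice. The set held 38 genes, found by their gene names in the scanner files, where the older symbols Dci and Peci stand for Eci1 and Eci2. These names matched 57 of the 41174 gene probes on the array, in 93 spots, and 54 of the 57 probes passed the filter on dim probes. All 38 genes had at least 1 tested probe, out of 21689 tested probes for 15374 gene names.

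PPAR-alpha is a transcription factor that is activated by fatty acids and their derivatives and that binds DNA as a pair with a retinoid X receptor. In hepatocytes it switches on genes that take up and activate fatty acids, carry them into mitochondria through the carnitine shuttle, and shorten them by beta-oxidation in mitochondria and peroxisomes. Its targets also include omega-hydroxylases of the Cyp4a family in the endoplasmic reticulum, fatty acid-binding protein, and secreted or regulatory proteins such as Angptl4, Fgf21 and Pdk4. In the liver this programme is best known for its rise in fasting and under fibrate drugs.

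Abcb4 encodes the transporter that moves phospholipid into bile. Each array carried liver RNA of an Abcb4(-/-) mouse and of an Abcb4(+/+) mouse in different dyes, and all knockout mice had received 1 of these bile acids in the feed for 9 weeks: cholic acid, called CA here, or ursodeoxycholic acid, called UDCA. CA was chosen to raise and UDCA to lower the activity of the liver disease. UDCA lacks a hydroxyl group that CA carries, and its hydroxyl group on the B ring points to the opposite face of the steroid. There were 6 arrays per diet from 5 knockout livers, arrays 1 to 3 with the knockout in Cy5 (red) and arrays 4 to 6 with it in Cy3 (green), and 1 array per diet is a technical dye swap of a liver already used. The labels do not say which array that is, nor the sex, strain or age of the mice, the doses or what the wild-type mice ate, and knockout mice without a bile acid were not analysed here. The gene loss and the bile acid thus cannot be told apart in a ratio to wild type, and since 1 pair of arrays per diet shares a liver the p-values are slightly too small.

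Over the 12 arrays the median intensity was 250.2 to 1296.4 in green and 59.2 to 158.2 in red. Between 1.27% and 5.97% of the spots were saturated in green, and at most 0.961% in red. The targeted gene, Abcb4, was lower than wild type by its never-saturated probe on all 12 arrays, at -3.74 to -2.07 with CA and -2.77 to -1.20 with UDCA as log2 ratios of knockout over wild type. Its brighter probe, saturated on 7 arrays, was at -0.73 ± 0.21 with CA and -1.28 ± 0.21 with UDCA; the labels do not place the deletion. All signed values here follow the dyes named in the labels; in the deposited series table the CA columns run the opposite way, as wild type over knockout, and were turned before use.

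Promoter sequences are shown first, for Fabp1, Hadha and Hadhb, and no call given below depends on them. The promoters are RefSeq sequences of build GRCm38.p6. The classical DNA element of PPAR-alpha is a direct repeat of a 6-base half-site with 1 base between the copies, searched here as AGGNCA, any base, AGGNCA on both strands from 250 bases before to 50 bases after each gene's start. Of 29 members with a promoter entry only Fabp1, the liver fatty acid-binding protein, held these letters, which is 3.45% of them against 0.451% of 27025 genes. The Fabp1 promoter lies at chr6:71199629-71199878 on the plus strand, and capitals mark the match, which reads on the opposite strand, 67 to 55 bases before the start.
Fabp1: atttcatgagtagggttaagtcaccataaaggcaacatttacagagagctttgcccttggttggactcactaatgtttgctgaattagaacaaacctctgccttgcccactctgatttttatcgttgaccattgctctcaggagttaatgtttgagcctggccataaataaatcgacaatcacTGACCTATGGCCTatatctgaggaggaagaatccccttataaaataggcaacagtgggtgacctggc
Hadha and Hadhb encode the alpha and beta subunits of the mitochondrial trifunctional protein and start head to head, with 272 bases between their starts. Their promoter windows share the 228 bases at chr5:30155003-30155230, printed on the plus strand, of which 57% are G or C against 53.8% over all promoters.
Hadha and Hadhb: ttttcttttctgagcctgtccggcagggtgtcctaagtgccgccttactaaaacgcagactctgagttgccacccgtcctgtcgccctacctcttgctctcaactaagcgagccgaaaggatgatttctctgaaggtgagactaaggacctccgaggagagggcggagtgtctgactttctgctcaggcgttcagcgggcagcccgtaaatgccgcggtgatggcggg
A match, or its absence from this window, is a description of the letters and not of binding.

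The 3 Cyp4a10 probes are shown because their ratios differ with UDCA. Their mm7 positions on chromosome 4 come from the scanner files. A_52_P257774 and A_52_P6588 span 489 and 482 bases of the genome with their 60 bases, while A_52_P340136 lies in 1 stretch and is tied to another transcript record of the gene.
A_52_P340136 (chr4:114901988-114902047): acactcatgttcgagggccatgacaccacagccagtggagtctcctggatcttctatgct
A_52_P257774 (chr4:114909102-114909590): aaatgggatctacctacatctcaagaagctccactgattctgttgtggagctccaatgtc
A_52_P6588 (chr4:114901279-114901760): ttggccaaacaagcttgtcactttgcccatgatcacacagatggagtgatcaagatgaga

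In CA-fed knockout liver most members were lower than in wild type. Of the 38, 23 fell, 2 rose and 13 did not pass the test at an adjusted p under 0.05 (limma, Benjamini-Hochberg over all tested probes). Over all 15374 genes, 22.4% were called lower with CA and 37.8% higher, 60.3% in all. The median of the members' fitted log2 ratios was -0.59, beside 0.10 over all genes, and 12 members fell at least 2-fold (4.74% of all genes did). In UDCA-fed knockout liver 8 members fell, 3 rose and 27 did not pass, against 8.79% and 17.2% of all genes, 26.0% in all. Here the members' median was -0.34 beside 0.04 over all genes, and with median centring in place of loess it was 0.04, so its sign depends on the scaling. At least 2-fold falls with UDCA were those of Ppara, Acot1 and Fgf21, 3 members against 1.48% of all genes. Called falls were shared by both diets for 7 members, and 16 passed with CA but not with UDCA, which by itself does not show a difference between the diets. Without UDCA array 1, 3 or 4, 7 members were called with UDCA in place of 11, and the shares of all genes are not given for these fits. With median centring, which lifted the median of all genes to 0.30 with CA and 0.32 with UDCA, 7 members fell and 2 rose with CA and none fell and 3 rose with UDCA. Under that scaling 4.9% of all genes fell and 25.6% rose with CA, and 0.598% fell and 10.1% rose with UDCA. The calls of Angptl4, Cyp4a10, Pdk4, Pex11a, Ppara and Vnn1 with CA, 6 of 25, and of Pdk4 and Vnn1 with UDCA, 2 of 11, held under every alternative that gave them a value.

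**Figure D1:**
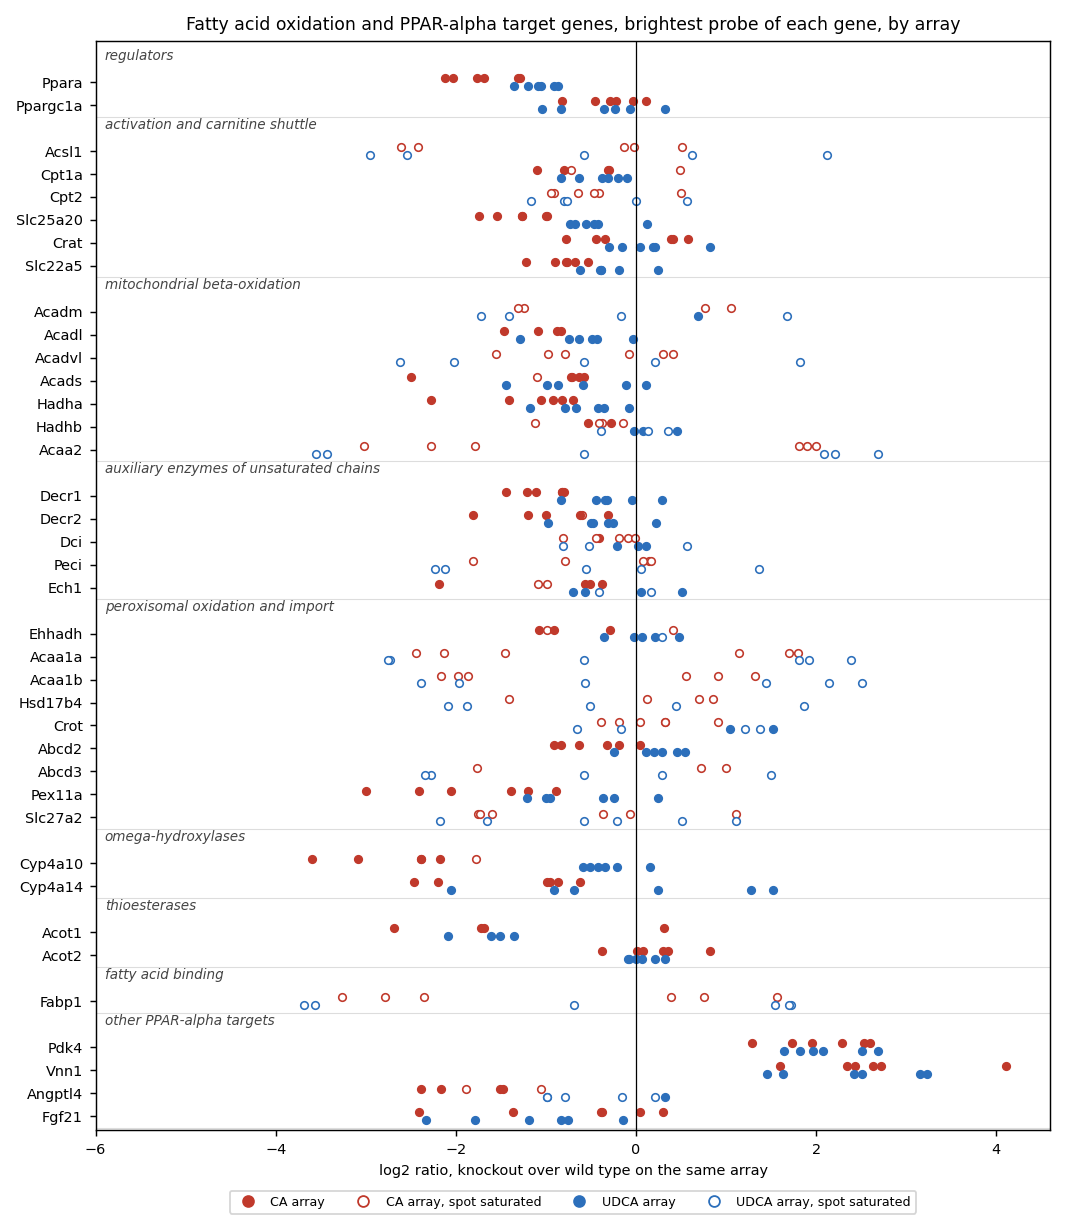
Log2 ratio of knockout over wild type on each array (x axis) for the brightest tested probe of each of the 38 genes, ordered by role; red points are the 6 CA arrays and blue points the 6 UDCA arrays, open where the spot was saturated in either channel. Ppara, Slc25a20 and Pdk4, with filled points, keep their arrays together, while Fabp1 and Acaa2, with open points, split into a group above 0 and a group below 0. This is not general: filled points of Cyp4a14 spread from -2.05 to 1.52 with UDCA. Hadhb, saturated on 7 arrays, stays between -1.13 and -0.14 with CA.

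Many of these messages are so abundant in liver that the scanner could not measure them fully. A spot is saturated where its pixels reached the scanner's upper limit, and on each array 11 to 22 of the members' brightest probes were saturated in green. Of the 38 brightest probes, 16 were never saturated, 6 were saturated on 1 to 5 arrays and 16 on 6 or more. With green at its limit on every array the ratio can vary with the red channel only, so a ratio averaged over both dye orientations then holds the red channel's part of the difference alone. The single-array ratios show it: Fabp1 read 0.38 to 1.56 on CA arrays 1 to 3 and -3.26 to -2.36 on CA arrays 4 to 6. On UDCA array 6, 8 members were saturated in both channels, and their ratios lay between -0.58 and -0.56 whatever the gene, so these carry no information. Across the array, 231 genes had both a probe saturated on 6 or more arrays and a probe never saturated. Over all 231, whichever way they moved, the median size of the CA log2 ratio was 0.24 by the saturated and 0.46 by the never-saturated probe. The saturated probe lay nearer 0 in 171 of them and the never-saturated probe in 60.

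Split in this way, the 16 never-saturated members gave 10 falls and 2 rises with CA, with a median of -0.92 (22.6% and 39.9% of never-saturated genes), and 7 falls and 2 rises with UDCA (8.39% and 16.9%). The 16 members saturated on 6 or more arrays gave 7 falls and no rise with CA, with a median of -0.48, and with UDCA no fall and 1 rise. Of the 1137 genes of the array saturated as often, 13.8% fell and 8.44% rose with CA, and 9.23% fell and 4.13% rose with UDCA. A member in the second group that did not pass the test is therefore not shown to be unchanged. Taking for each gene its least saturated probe instead of its brightest, a choice made after seeing the data, gave 25 falls and 2 rises with CA and 12 falls and 3 rises with UDCA. The medians were then -0.87 and -0.38, and the shares of all genes 23.9% and 8.94% for falls and 37.3% and 16.9% for rises.

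**Figure D2:**
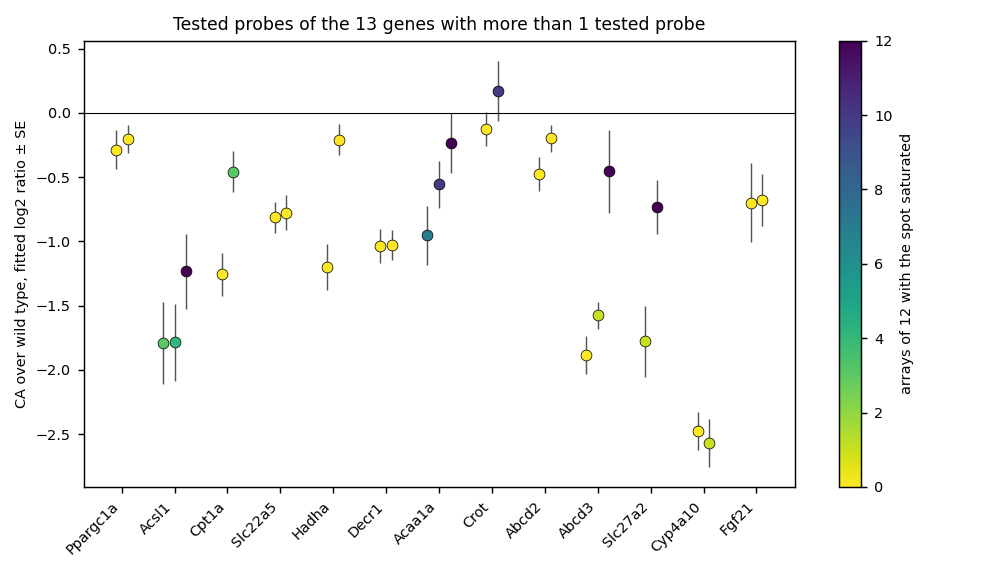
Fitted log2 ratio of CA-fed knockout over wild type with its standard error (y axis) for each tested probe of the 13 genes with more than 1 tested probe, coloured by how many of the 12 arrays had the spot saturated. For Acsl1, Cpt1a, Acaa1a, Abcd3 and Slc27a2 the more saturated probe lies nearer 0, while for Crot (0.17 at 10 arrays and -0.12 at none) and Cyp4a10 (-2.57 at 1 array and -2.48 at none) it lies further from 0, and the Hadha probes differ with neither saturated.

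Of the regulators, the receptor itself was lower in both diets. Ppara (probe at mm7 chr15:85883890-85883949, never saturated) ranged from -2.13 through a median of -1.73 to -1.29 on the CA arrays. On the UDCA arrays it ranged from -1.35 through -1.07 to -0.87. All 12 arrays were below 0, and the diets' ranges touched only at the upper CA and lower UDCA arrays. The fitted ratio was -1.71 ± 0.12 (SE, 6 arrays) with CA, a 3.26-fold lower level (adjusted p = 1.84e-08), and -1.08 ± 0.12 with UDCA, 2.11-fold lower (adjusted p = 1.03e-05). The gap between the diets, -0.63 ± 0.17, passed the test (adjusted p = 0.0140). In the red channel alone both diets were called and stood close together, at -1.30 (adjusted p = 0.00665) and -1.28 (adjusted p = 0.0260), with a gap of -0.03 (adjusted p = 0.99). Ppargc1a, the coactivator induced in fasting, stood at -0.29 ± 0.15 with CA and -0.37 ± 0.15 with UDCA and passed in neither (adjusted p = 0.122 and 0.101), and its other probe passed in neither as well. In bulk liver, fewer hepatocytes and less RNA per hepatocyte cannot be told apart, here and in what follows.

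In the activation and carnitine shuttle group, 4 of 6 members fell with CA and 1 with UDCA. Slc25a20, the carrier that exchanges acylcarnitine for carnitine across the inner mitochondrial membrane, was low on every CA array. It ranged from -1.74 through -1.27 to -0.99 on the CA arrays and from -0.73 through -0.51 to 0.12 on the UDCA arrays. All CA arrays lay below all UDCA arrays, which was so for 3 members, 7.89% of them, and for 3.14% of all genes. The fitted ratios were -1.30 ± 0.10 (adjusted p = 5.14e-08) with CA and -0.46 ± 0.10 (adjusted p = 0.00402) with UDCA, and their difference was -0.85 ± 0.14 (adjusted p = 0.000744). Slc22a5, the plasma membrane carnitine carrier, was below 0 on all 6 CA arrays, at -1.23 to -0.53, and fell by 0.81 ± 0.12 (log2, adjusted p = 2.89e-05). With UDCA it stood at -0.29 ± 0.12 (adjusted p = 0.0885), and the difference of -0.52 passed (adjusted p = 0.0309) but did not without CA array 4 or 6 or UDCA array 5 or 6 (-0.51 to -0.40, adjusted p = 0.0519 to 0.0678) or with the slide as a block (-0.56, adjusted p = 0.0509). Its other probe, never saturated too, also fell with CA (-0.78, adjusted p = 0.000203), and its difference of -0.40 did not pass (adjusted p = 0.146).

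Cpt1a and Acsl1 depend on the probe. Cpt1a is the carnitine palmitoyltransferase of the outer membrane and the entry point of the shuttle. By its brightest probe, saturated on 3 arrays, it fell by 0.46 with CA (adjusted p = 0.0202), a call lost without CA array 3, 4 or 5 (-0.43 to -0.28), and stood at -0.41 ± 0.16 with UDCA (adjusted p = 0.0712). By its never-saturated probe it was below 0 on all 12 arrays, at -2.27 to -0.70 with CA and -1.25 to -0.40 with UDCA, and fell by 1.25 ± 0.17 (adjusted p = 1.26e-05) and 0.69 ± 0.17 (adjusted p = 0.00667). Acsl1, the main acyl-CoA synthetase of liver, fell by 1.23 with CA by a probe saturated on all 12 arrays. That call was lost with the slide as a block (-0.24, adjusted p = 0.535), with no dye effect in the fit (-0.93, adjusted p = 0.260) and with the scanner's own processed ratios (-0.83, adjusted p = 0.0647). By the other probes, saturated on 3 and 4 arrays, it fell by 1.79 in each case (SE 0.32 and 0.30, adjusted p = 0.000207 and 0.000114), and CA array 2 was the only CA array above 0. With UDCA the same probes gave -0.87 and -0.82 (adjusted p = 0.0624 and 0.0611), on all 6 arrays below 0. Cpt2, the inner membrane transferase, was saturated on all 12 arrays and stood at -0.48 and -0.45 with adjusted p of 0.0658 and 0.195. Crat, the short-chain carnitine acetyltransferase, was never saturated and stood at -0.03 ± 0.18 and 0.14 ± 0.18, with arrays on both sides of 0 in both diets.

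Of the 7 mitochondrial beta-oxidation members, 4 fell with CA and 3 with UDCA. Hadha (mm7 chr5:29152587-29152646), which holds the hydratase and dehydrogenase activities of the trifunctional protein, ranged from -2.28 through -0.99 to -0.70 with CA and from -1.18 through -0.54 to -0.08 with UDCA. It was below 0 on all 12 arrays and fell by 1.20 ± 0.18 with CA, 2.30-fold (adjusted p = 3.45e-05), and by 0.58 ± 0.18 with UDCA (adjusted p = 0.0259). The UDCA call was lost when UDCA array 2, 3, 4 or 6 was left out and with the slide as a block (-0.40, adjusted p = 0.129). Another probe that the files name Hadha lies apart from it, at chr5:29187010-29187069, belongs to another transcript record and stood at -0.21 ± 0.12 (adjusted p = 0.146). Its head-to-head neighbour Hadhb, the thiolase subunit, fell by 0.48 ± 0.13 with CA (adjusted p = 0.00545) by a probe saturated on 7 arrays. With UDCA it stood at 0.10 ± 0.13, and the difference of -0.58 passed (adjusted p = 0.0308) but did not without any 1 of CA arrays 3 and 5 or UDCA arrays 1, 2, 5 and 6, nor with the slide as a block (-0.58, adjusted p = 0.0902).

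The acyl-CoA dehydrogenases, which take the first step of each cycle, are named for chain length. Acadl, the long-chain enzyme, had values on 4 CA arrays, at -1.46, -1.09, -0.87 and -0.83, and fell by 1.07 ± 0.18 with CA (adjusted p = 0.000185). On the UDCA arrays it ranged from -1.29 to -0.04 and fell by 0.61 ± 0.15 (adjusted p = 0.00805). Acads, the short-chain enzyme, fell by 1.04 ± 0.21 with CA (adjusted p = 0.000587) and was below 0 on all 6 CA arrays, at -2.50 on array 3 and between -1.10 and -0.58 on the others. With UDCA it fell by 0.65 ± 0.21 (adjusted p = 0.0360), a call lost without UDCA array 1, 3, 4 or 6 (-0.70 to -0.41). Acadm and Acadvl, the medium- and very-long-chain enzymes, and Acaa2, the mitochondrial thiolase, were saturated on 11 or 12 arrays, with CA ratios of -0.19, -0.45 and -0.23 (adjusted p = 0.499, 0.159 and 0.506). The single-array ratios of Acaa2 changed sign with the dye, at 1.81 to 2.00 on CA arrays 1 to 3 and -3.03 to -1.79 on CA arrays 4 to 6. Acadm, with values on 4 CA arrays, read 0.76 and 1.05 on arrays 1 and 2 and -1.24 and -1.31 on arrays 5 and 6. Acadvl was at 0.41, 0.30 and -0.08 on CA arrays 1 to 3 and at -1.56 to -0.79 on CA arrays 4 to 6.

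The auxiliary enzymes, which reshape double bonds so that unsaturated chains can be oxidised, gave 4 falls of 5 with CA and none with UDCA. Decr1, the mitochondrial dienoyl-CoA reductase, ranged from -1.44 through -0.97 to -0.80 with CA and from -0.84 through -0.33 to 0.29 with UDCA. The CA arrays were all below 0, and the lowest UDCA array reached into their range. It fell by 1.03 ± 0.13 with CA (adjusted p = 7.86e-06), stood at -0.28 ± 0.13 with UDCA (adjusted p = 0.138), and the difference was -0.75 ± 0.19 (adjusted p = 0.00833). The second Decr1 probe gave -1.03, -0.32 and -0.71, with the same calls. Ech1, the dienoyl-CoA isomerase, fell by 0.96 ± 0.13 with CA (adjusted p = 2.03e-05, -2.18 to -0.38), and the diets differed by -0.80 ± 0.19 (adjusted p = 0.00639). Decr2, the peroxisomal reductase, fell by 0.92 ± 0.16 (adjusted p = 0.000191), with -0.39 ± 0.16 for UDCA (adjusted p = 0.106). Peci, an enoyl-CoA isomerase, was saturated on all 12 arrays and fell by 0.63 (adjusted p = 0.0483), a call lost without any 1 of CA arrays 1, 2, 3, 5 and 6 or UDCA arrays 1 and 3 (-0.65 to -0.55). Dci, the mitochondrial isomerase, stood at -0.33 ± 0.15 (adjusted p = 0.0701).

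Of the 9 peroxisomal members 5 fell with CA, and 1 fell and 1 rose with UDCA. Pex11a, the peroxisome proliferation factor (mm7 chr7:75606703-75606762, never saturated), ranged from -2.99 through -1.72 to -0.89 with CA and from -1.21 through -0.66 to 0.25 with UDCA. It fell by 1.82 ± 0.19 with CA, 3.53-fold (adjusted p = 9.21e-07), and the difference between the diets was -1.23 ± 0.27 (adjusted p = 0.00354). Its fall with UDCA, by 0.59 ± 0.19 (adjusted p = 0.0334), was lost without UDCA array 1, 2, 3, 4 or 6 (-0.60 to -0.54). Abcd3 encodes an abundant transporter of the peroxisomal membrane. Its brightest probe was saturated on all 12 arrays and stood at -0.46 ± 0.32 with CA and -0.42 ± 0.25 with UDCA, with 3 CA values missing. By its never-saturated probe it was at -2.45 to -1.23 on the CA arrays and -0.98 to -0.0043 on the UDCA arrays, which did not overlap. That probe fell by 1.88 ± 0.15 with CA (adjusted p = 5.64e-08) and 0.61 ± 0.15 with UDCA (adjusted p = 0.00739), a difference of -1.28 ± 0.21 (adjusted p = 0.000602). Its remaining probe gave -1.58, -0.57 and -1.002, all called, again with no overlap.

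Crot rose with UDCA and not with CA, and the diets differed by 1 of its probes. It encodes the peroxisomal carnitine octanoyltransferase, which exports shortened chains. Its probes lie at mm7 chr5:9004074-9025517, close to those of the targeted gene Abcb4 at chr5:8978600-8996811. Whether the targeting of that locus affects the Crot ratio to wild type was not tested. By its never-saturated probe it ranged from -0.77 through -0.12 to 0.39 over 5 CA arrays and from 0.68 through 0.90 to 1.55 over the 6 UDCA arrays, with no overlap. It stood at -0.12 ± 0.13 with CA (adjusted p = 0.437) and rose by 0.97 ± 0.12 with UDCA, 1.95-fold (adjusted p = 3.95e-05), a difference of -1.09 ± 0.18 (adjusted p = 0.000669). By its brightest probe, saturated on 10 arrays, it rose by 0.72 with UDCA (adjusted p = 0.0355), which was lost without UDCA array 1, 2, 3 or 6. Abcd2, an importer of very long chains, also lay on both sides of 0, at -0.91 to 0.05 with CA and -0.25 to 0.55 with UDCA. It fell by 0.47 ± 0.13 with CA (adjusted p = 0.00647), stood at 0.23 ± 0.13 with UDCA (adjusted p = 0.253), and differed by -0.70 ± 0.19 (adjusted p = 0.0133). Its other probe gave -0.20 and -0.02 and passed in no comparison. The brightest Abcd2 probe was dim, well above background on 4 of 6 CA arrays for knockout and for wild-type RNA. With UDCA it was so on 5 arrays for knockout and on 4 for wild-type RNA. The probe thus met the filter of at least 5 arrays only through UDCA-fed knockout RNA, so its difference between the diets is not support of its own. With plain background subtraction neither the CA fall (-0.94, adjusted p = 0.160) nor the difference (-2.15, adjusted p = 0.0820) passed.

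The remaining peroxisomal members are abundant enzymes whose probes were often saturated. Slc27a2, a very-long-chain acyl-CoA synthetase, fell by 0.74 with CA by a probe saturated on all 12 arrays (adjusted p = 0.00718). By a probe saturated on 1 array it fell by 1.78 ± 0.28 (adjusted p = 7.55e-05) with CA and by 0.94 ± 0.25 (adjusted p = 0.0133) with UDCA, with 1 CA value missing. Acaa1a and Acaa1b are nearly identical thiolase genes whose probes may detect both, and for Acaa1a the fitted CA ratio followed saturation, with -0.23, -0.56 and -0.95 by probes saturated on 12, 10 and 7 arrays. The last of these also differed between the diets, by -0.97 ± 0.33 (adjusted p = 0.0402), while the first did not pass in any comparison. Acaa1b fell by 0.54 with CA (adjusted p = 0.0322), a call lost without CA array 2, 3 or 5 (-0.54 to -0.41) and with the slide as a block (-0.34, adjusted p = 0.134). Ehhadh, the bifunctional enzyme and a standard PPAR-alpha target, fell by 0.55 ± 0.19 with CA (adjusted p = 0.0208), a call lost without CA array 3, 4 or 5, and stood at 0.11 ± 0.17 with UDCA. Hsd17b4, the multifunctional enzyme of branched chains, was saturated on all 12 arrays and stood at -0.53 and -0.20.

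The omega-hydroxylases start oxidation from the far end of the chain and are among the most inducible targets of the receptor. By its brightest probe Cyp4a10 ranged from -3.60 through -2.39 to -1.78 with CA and from -0.58 through -0.39 to 0.15 with UDCA, with no overlap. It fell 5.93-fold with CA (-2.57 ± 0.18, adjusted p = 2.12e-08) and stood at -0.32 ± 0.18 with UDCA (adjusted p = 0.237). The probe A_52_P257774 fell as far with CA (-2.48 ± 0.15, adjusted p = 3.74e-09), but with UDCA it was below 0 on all 6 arrays, at -1.46 to -0.60, and fell 2.27-fold (-1.18 ± 0.15, adjusted p = 3.04e-05). The difference between the diets was called by both probes, at -2.25 and -1.29 (adjusted p = 5.48e-05 and 0.000520), so whether Cyp4a10 fell with UDCA depends on the probe, and its difference between the diets does not. A_52_P6588, which was too dim to be tested, was below 0 on all 12 arrays too. Close relatives of the gene may hybridise to these probes, which was not tested. Cyp4a14 varied widely between arrays of 1 diet: it fell by 1.35 ± 0.37 with CA (adjusted p = 0.00587, -2.46 to -0.63) and lay between -2.05 and 1.52 with UDCA, where its fitted value was -0.10 ± 0.37.

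Acot1, a cytosolic thioesterase that releases free fatty acid from acyl-CoA, was measured on 4 arrays per diet. It read -2.69, -1.72, -1.69 and 0.31 with CA and -2.09, -1.61, -1.51 and -1.36 with UDCA, so 1 CA array was above wild type. It fell by 1.45 ± 0.35 with CA (adjusted p = 0.00404) and by 1.64 ± 0.35 with UDCA (adjusted p = 0.00544), with a difference of 0.20 and a 95% confidence interval of -0.89 to 1.28. With the slide as a block neither fall passed, at -1.44 (adjusted p = 0.103) and -1.84 (adjusted p = 0.0939). Its near-identical mitochondrial neighbour Acot2 stood at 0.20 and 0.07, between -0.38 and 0.82 on single arrays, and whether the probes tell the genes apart was not tested. Fabp1, saturated on all 12 arrays, fell by 0.95 ± 0.29 with CA (adjusted p = 0.0113) and stood at -0.50 ± 0.29 with UDCA (adjusted p = 0.252). The CA call was lost without CA array 1 and with no dye effect in the fit (-0.95, adjusted p = 0.340). It was also lost with the scanner's own processed ratios (-0.27, adjusted p = 0.515).

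The targets outside oxidation went in different directions. Pdk4, the kinase that switches off pyruvate dehydrogenase and so spares glucose, was above 0 on all 12 arrays. It ranged from 1.29 through 2.12 to 2.60 with CA and from 1.64 through 2.02 to 2.69 with UDCA, and the diets overlapped throughout. It rose 4.18-fold with CA (2.06 ± 0.16, adjusted p = 6.34e-08) and 4.34-fold with UDCA (2.12 ± 0.16, adjusted p = 3.58e-07). Vnn1, the pantetheinase that makes cysteamine, was above 0 on all 12 arrays as well, at 1.59 to 4.10 and 1.45 to 3.23, and rose 6.22-fold and 5.27-fold (2.64 ± 0.24 and 2.40 ± 0.24, adjusted p = 2.11e-07 and 3.20e-06). The differences between the diets were -0.05 (95% confidence interval -0.55 to 0.44) for Pdk4 and 0.24 (-0.47 to 0.95) for Vnn1.

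Angptl4, the secreted inhibitor of lipoprotein lipase, ranged from -2.39 through -1.70 to -1.05 with CA and from -0.99 through -0.47 to 0.32 with UDCA. The diets did not overlap, and 6 of the 12 arrays were saturated. It fell 3.36-fold with CA (-1.75 ± 0.20, adjusted p = 2.59e-06), stood at -0.40 ± 0.20 with UDCA (adjusted p = 0.174), and differed by -1.35 ± 0.28 (adjusted p = 0.00288). Fgf21, the fasting hormone of the liver, was the 1 member called lower with UDCA and not with CA. It ranged from -2.33 through -1.01 to -0.15 with UDCA and fell by 1.17 ± 0.31 (adjusted p = 0.0113), a call lost without UDCA array 1 or 4 and with the slide as a block (-0.95, adjusted p = 0.126). With CA it ranged from -2.41 to 0.30 and stood at -0.70 ± 0.31 (adjusted p = 0.0627). By its other probe it fell in both, by 0.68 ± 0.20 with CA (adjusted p = 0.00914) and by 1.03 ± 0.20 with UDCA (adjusted p = 0.00158). The diets are not shown to differ by either probe. The difference was 0.48 by the brightest (95% confidence interval -0.45 to 1.40) and 0.35 by the other (-0.26 to 0.96).

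The red channel, which saturated far less, gave a view of the abundant members without the green limit. It sets knockout RNA on arrays 1 to 3 against wild-type RNA on arrays 4 to 6 of each diet after quantile normalization. It loses the pairing within an array, and it was chosen after seeing the data. Genotype is also largely tied to the slide, with slides 1 and 2 against 2 to 4 for CA, and 3 and 4 against 4 and 5 for UDCA. The median red intensity was 105.6 and 158.2 on CA arrays 1 and 2, 97 on UDCA array 6 and 59.2 to 66.2 on the others. On UDCA array 6, 9 members were saturated in red, and red values of members such as Fabp1 were missing. A red value was available for 36 members, and with CA 14 of them fell and 2 rose, against 6.90% of all genes falling. Among the 14 such members saturated on 6 or more arrays, the median moved from -0.48 by the ratio to -0.84 in red, 12 lay further from 0 in red, and 7 fell. Where green is at its limit, the ratio uses the same red values and holds only part of their difference. A red value further from 0 can thus come from the calculation alone and is not separate support for a larger fall. With UDCA the median of these 14 members lay nearer 0 in red, at -0.14 in place of -0.25. In the 16 never-saturated members the medians were -0.92 and -0.89, and 5 lay further from 0. Among members saturated on 6 or more arrays, the largest called red falls with CA were Acsl1 at -2.39 (adjusted p = 0.00103), Angptl4 at -2.13 (adjusted p = 0.00118), Fabp1 at -1.81 (adjusted p = 0.0119) and Slc27a2 at -1.36 (adjusted p = 0.0306). Acadvl, which did not pass by the ratio, fell by 0.82 in red (adjusted p = 0.0294). For the brightest genes the red value depended on the scaling: with median scaling, which moved the median of all genes to -0.26, Acaa2 went from -0.10 to -0.92 and Acadm from -0.22 to -0.99. With UDCA 2 members rose and 1 fell in red, against 2.24% and 1.11% of all 15069 genes with a red value. No difference between the diets passed in red, while 8 had an unadjusted p under 0.05 (limma), and of all those genes 14 were lower and 8 higher with CA, 0.146% in all.

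**Figure D3:**
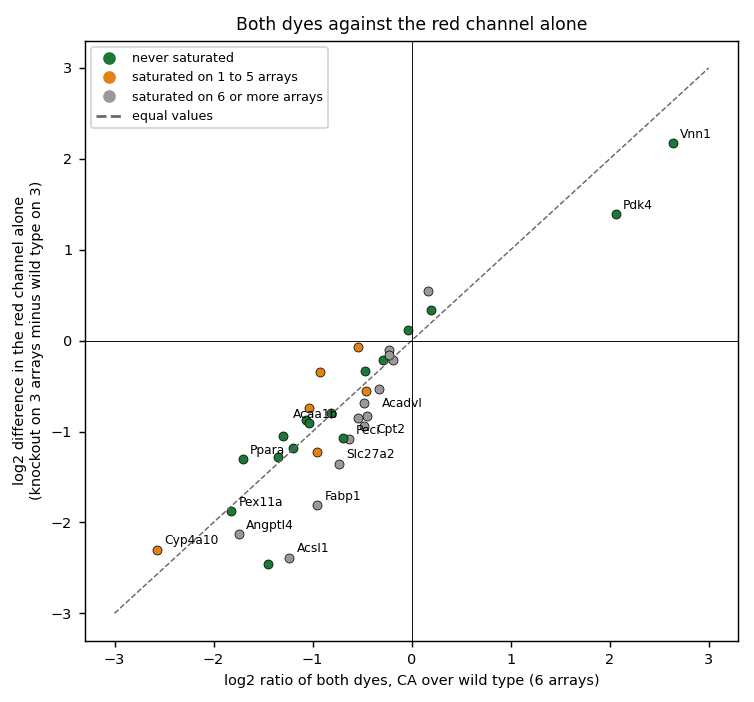
Log2 ratio of CA-fed knockout over wild type by both dyes on 6 arrays (x axis) against the log2 difference in the red channel alone (y axis) for the 36 members with a red value, coloured by how often the probe was saturated. Never-saturated members lie on both sides of the line of equal values, with medians of -0.92 and -0.89, and saturated members such as Fabp1 (-0.95 and -1.81) and Acsl1 (-1.23 and -2.39) lie below it. Both axes use the same red values, so for members with green at its limit this place can come from the calculation alone.

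Set against each other, the diets differed in 10 members, all lower with CA, and none was higher with CA. Of all genes 8.88% were called lower and 18.8% higher with CA than with UDCA, 27.7% in all. None of the 10 held under every alternative: with median centring and with the red channel alone no difference passed, while 4 and 8 had an unadjusted p under 0.05 (limma). Under these settings few genes were called lower with CA than with UDCA at all, 0.566% and 0.0929%, and 3.79% and 0.0531% were called higher. The comparison is indirect, since each diet was measured against wild type on its own arrays, and since no dose is given it compares the diets as fed. The members' median difference was -0.42, beside 0.08 over all genes. The 10 were Cyp4a10, Angptl4, Pex11a, Slc25a20, Ech1, Decr1, Abcd2, Ppara, Hadhb and Slc22a5, in order of size from -2.25 to -0.52. Of these, Abcd2 passed the filter on dim probes only through UDCA-fed knockout RNA. A stricter filter on dim probes left 35 members, of which 9 differed. Only 3 of the 10 had all CA arrays below all UDCA arrays, namely Cyp4a10, Angptl4 and Slc25a20, and with the least saturated probe of each gene 5 members did. No member had all CA arrays above all UDCA arrays, as 7.09% of all genes did. Among the 16 never-saturated members 6 differences were lower with CA and none higher, against 9.08% and 20.4% of never-saturated genes. That probe choice gave 13 differences, all lower with CA (9.80% of all genes were, and 18.7% higher), with a median of -0.55. For 28 members the difference did not pass, and their intervals were often wide: for Acsl1 it was -0.87 with a 95% confidence interval of -1.77 to 0.03, and for Cyp4a14 it was -1.25 with an interval of -2.38 to -0.12 (adjusted p = 0.0930).

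**Figure D4:**
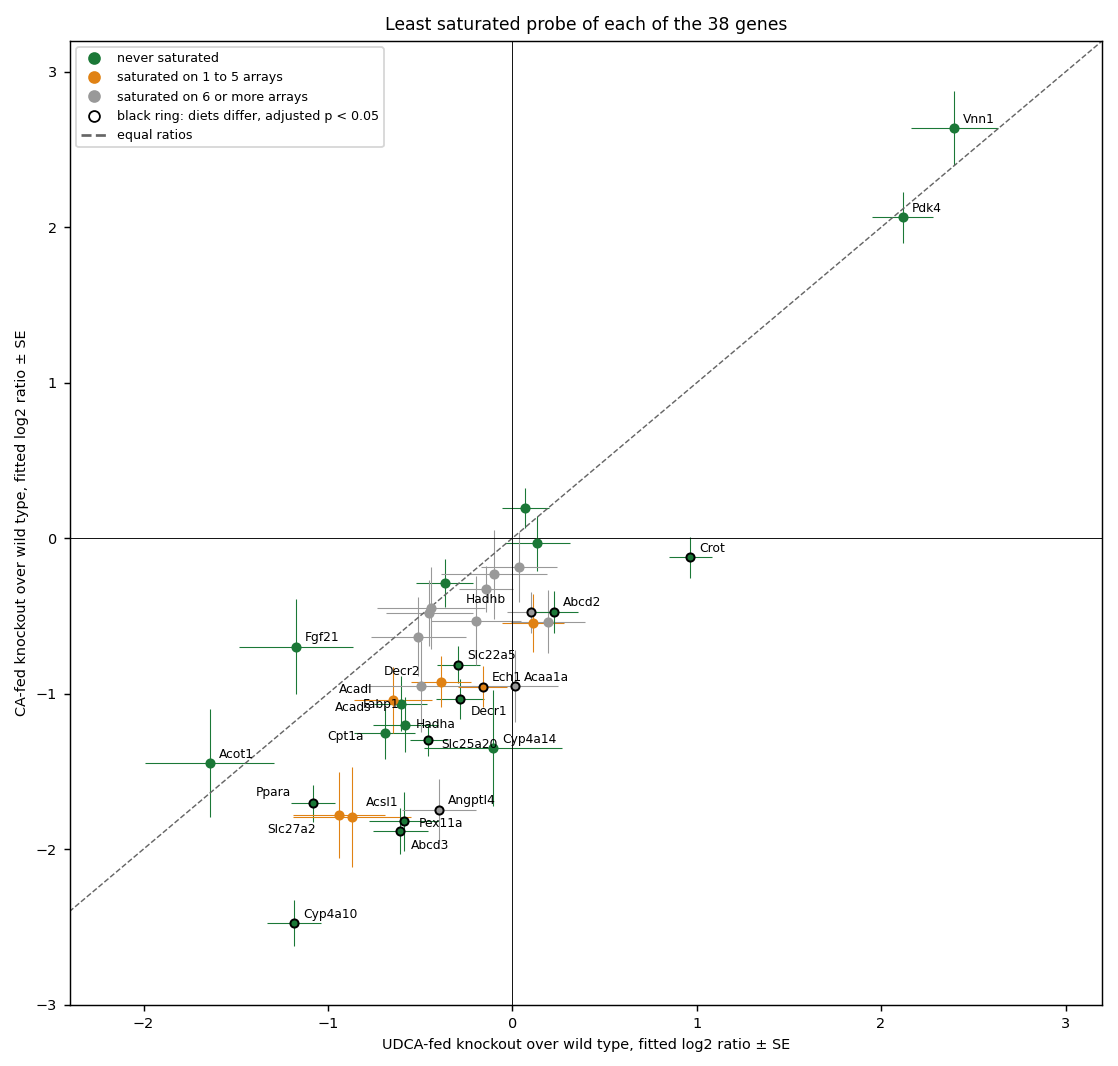
Fitted log2 ratio to wild type with UDCA (x axis) and with CA (y axis), with standard errors, for the least saturated probe of each of the 38 genes; colours give how often the probe was saturated, and black rings mark the 13 members with a called difference. All ringed genes lie below the line of equal ratios, Pdk4 and Vnn1 lie close to it at 2 and above, and Crot lies at 0.97 with UDCA and -0.12 with CA.

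Slides held both diets in 2 cases. On slide 3, with 1 CA and 2 UDCA arrays, the members' median difference was -0.56 beside 0.07 over all genes. On slide 4, with 1 CA and 3 UDCA arrays, it was -0.36 beside 0.10, and the 10 called members were lower with CA on both slides. The 10 were called in a fit that includes these same arrays, so their shared sign is not a separate check. With the slide as a block, 24, 15 and 13 members were called for CA, UDCA and the difference. The shares of all genes are not given for that fit, so these counts are not set against them. Acsl1, Acaa1b and Acot1 then no longer passed with CA, nor Acot1, Fgf21, Hadha, Pex11a and Slc25a20 with UDCA, nor Hadhb and Slc22a5 between the diets. The UDCA values of Pex11a and Slc25a20 were -0.45 (adjusted p = 0.260) and -0.34 (adjusted p = 0.0892).

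The other genes of these pathways, from lists of 149 genes of which 136 were measured, were lower with CA in most groups. These lists were drawn up with results of these data known and are described by their counts. With CA 75 fell and 18 rose (median -0.46), with UDCA 24 fell and 17 rose (median -0.17), and 45 differences were lower and 6 higher with CA. Of all genes 22.4% fell and 37.8% rose with CA, and 8.79% fell and 17.2% rose with UDCA. The difference was called lower with CA for 8.88% of all genes and higher for 18.8%. Of 19 other mitochondrial genes 11 fell and 1 rose with CA, and 3 fell and 1 rose with UDCA. With median centring 1 fell and 1 rose with CA and none fell and 1 rose with UDCA, where the median went from -0.24 to 0.05. For this and the lists below, the shares of all genes with median centring were 4.9% falling and 25.6% rising with CA. With UDCA they were 0.598% and 10.1%, and for the difference 0.566% lower and 3.79% higher with CA. The medium-chain acyl-CoA synthetase genes Acsm1 and Acsm3 fell by 1.54 ± 0.20 and 1.51 ± 0.14 with CA, and stood at -0.41 and -0.39 with UDCA; both differences passed (adjusted p = 0.00954 and 0.00105). The dehydrogenase genes Acad11 and Acadsb fell by 1.47 and 1.41 with CA, and Acadsb also fell by 0.65 with UDCA. Acad10 and Acad8 were lower with CA than with UDCA on every array, by 0.93 ± 0.17 and 0.80 ± 0.17. Eci3, an isomerase, fell by 1.25 and 0.80. Slc25a29, a mitochondrial carrier, fell by 0.54 and 0.58 by its brightest probe and passed by its other in neither diet. Acot9, a mitochondrial thioesterase, was the exception and rose by 2.26 ± 0.17 and 2.02 ± 0.17.

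Ketone body genes went both ways. Oxct1, the enzyme that lets tissues burn ketone bodies and that healthy hepatocytes hardly express, rose by 3.23 ± 0.16 with CA (adjusted p = 1.32e-09) and by 1.22 ± 0.14 with UDCA (adjusted p = 2.22e-05). All CA arrays of Oxct1 lay above all UDCA arrays, and its other probes rose too. Bdh2 fell by 1.15 with CA. Slc16a6, a monocarboxylate carrier, rose by 1.29 and 1.15, and Slc16a1 rose by 0.69 with UDCA and stood at 0.13 with CA, where another of its probes fell by 0.58. Of the 8 genes 3 fell and 2 rose with CA (22.4% and 37.8% of all genes), and 2 fell and 3 rose with UDCA (8.79% and 17.2%). With median centring 1 fell and 2 rose with CA, and none fell and 2 rose with UDCA. Whether this list of 8 differs from the shares of all genes was not tested.

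Peroxisome assembly genes, which build the organelle's membrane and import its enzymes, were lower with CA as well. All 15 peroxisome assembly genes had ratios below 0 with CA, and 13 fell; with UDCA 2 fell, and 10 of the 15 differences passed, all lower with CA. Their medians were -0.57 with CA and -0.11 with UDCA. With median centring the medians were -0.38 and 0.19, none of the 15 passed in either diet or in the difference, and the median difference was -0.71 in place of -0.60. Pex26 fell by 1.24 ± 0.16 (adjusted p = 9.95e-06), Pex14 by 0.91 and Pex19 by 0.81, while Pex16 and Pex2 fell by 0.73 and 0.61 with CA and stood at -0.0034 and 0.06 with UDCA. Pex6 fell in both diets, by 0.60 with CA and 0.57 with UDCA. Of 22 other peroxisomal oxidation genes 13 fell and 2 rose with CA, and 2 fell and 1 rose with UDCA. With median centring 3 of these fell and none rose with CA, and none fell and 1 rose with UDCA, with a UDCA median of 0.015. Hacl1, the lyase of alpha-oxidation, fell by 2.44 ± 0.20 with CA (adjusted p = 8.73e-08), stood at -0.44 ± 0.20 with UDCA, and its diets did not overlap. Idh1 fell by 1.46 with CA and also had no overlap. The thioesterase genes Acot3, Acot12 and Acot4 fell by 2.12, 1.61 and 1.45 with CA, and Acot12 by 0.46 with UDCA. Nudt7, a hydrolase of coenzyme A, fell by 0.84 and 1.12 by a probe saturated on all 12 arrays, and Hao2, an oxidase of hydroxy acids, rose by 0.83 with UDCA and by 0.46 with CA.

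Of 8 other omega-oxidation genes 6 fell with CA and none rose, and with UDCA 2 fell and 1 rose. With median centring 1 fell in each diet and none rose. Cyp4a31 fell by 2.75 ± 0.19 with CA and fell by 1.597 ± 0.19 with UDCA, and Cyp4f13 by 1.41 and 0.60. Cyp4a12a fell by 1.69 with CA by a probe saturated on 9 arrays and stood at -3.38 by a probe saturated on 1, also called. Aldh3a2, the fatty aldehyde dehydrogenase, fell by 0.48 ± 0.14 with CA and rose by 0.57 ± 0.14 with UDCA, with no overlap (difference -1.06 ± 0.20, adjusted p = 0.00173). Adh4 fell by 0.68 with CA.

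**Figure D5:**
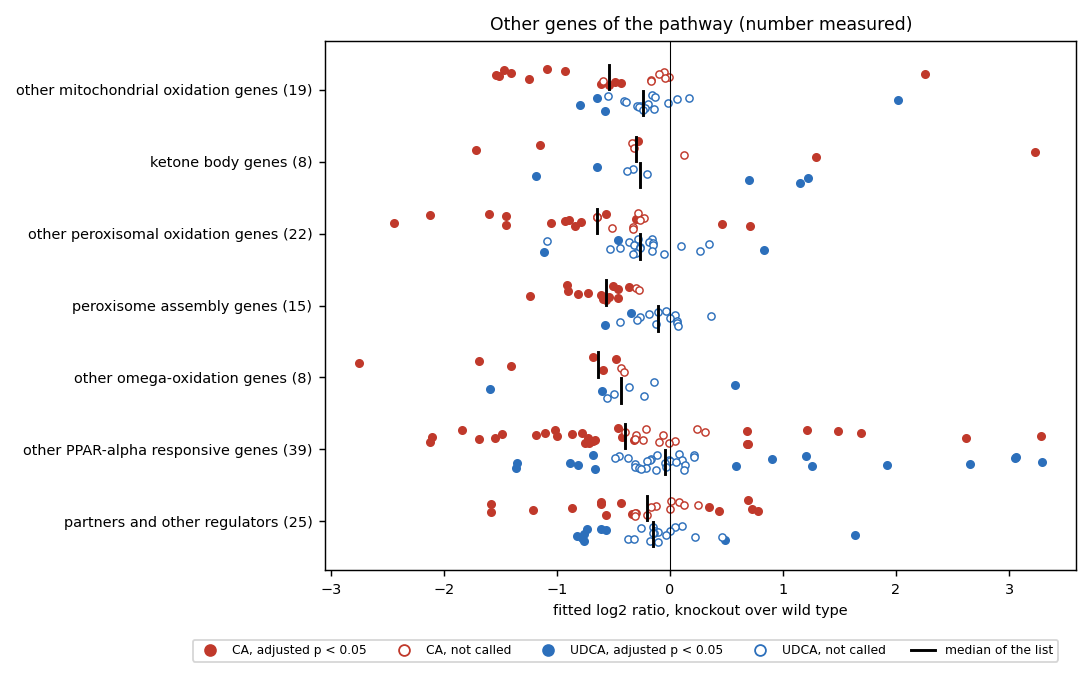
Fitted log2 ratio of knockout over wild type (x axis) for the measured genes of 7 lists of related genes, red for CA and blue for UDCA, filled where the adjusted p was under 0.05; black bars are list medians. The peroxisome assembly genes lie below 0 with CA (median -0.57) and around 0 with UDCA (median -0.11), and the PPAR-alpha responsive genes reach above 3 in both diets.

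Other genes known to respond to PPAR-alpha went both ways: 20 of 39 fell and 8 rose with CA, and 6 fell and 9 rose with UDCA. With median centring 5 fell and 7 rose with CA, and none fell and 8 rose with UDCA, where the median went from -0.04 to 0.24. Retsat, a retinol saturase, fell by 2.13 ± 0.23 and 1.37 ± 0.23, and Lpin1, a phosphatidate phosphatase and coactivator, by 2.11 ± 0.13 and 1.35 ± 0.13. Lpl and Krt23 rose by 2.62 and 3.28 with CA and by 2.66 and 3.29 with UDCA. The lipid droplet and lipid uptake genes Cidec, Cd36, Mogat1 and Plin4 were higher with UDCA than with CA on every array. Cidec rose by 3.06 ± 0.21 with UDCA and stood at 0.31 ± 0.21 with CA. Cd36 rose by 3.06 ± 0.17 and 1.49 ± 0.17. Mogat1 rose by 1.92 with UDCA and stood at -0.31 with CA. Plin4 rose by 1.25 with UDCA and fell by 0.67 with CA. The differences were -2.74, -1.57, -2.23 and -1.92, with adjusted p between 3.93e-05 and 0.000669.

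Among 25 partners and other regulators 9 fell and 5 rose with CA (22.4% and 37.8% of all genes). With UDCA 7 fell and 2 rose (8.79% and 17.2% of all genes). With median centring 3 fell and 3 rose with CA and 1 fell and 1 rose with UDCA, with medians of 0.07 and 0.15. Prkaa2, a catalytic subunit of the energy sensor AMPK, fell by 1.59 ± 0.14 and 0.78 ± 0.14, and Klb, the co-receptor of Fgf21, by 1.58 ± 0.13 and 0.57 ± 0.13. Ppargc1b, the coactivator related to Ppargc1a, fell by 1.21 and 0.82 and Nr0b2, a repressor induced by bile acids, by 0.87 and 0.76. Pparg, the adipocyte receptor of the same family, rose by 0.72 ± 0.14 with CA and by 1.63 ± 0.14 with UDCA, a difference of -0.91 ± 0.20 (adjusted p = 0.00353). Rxrg fell by 0.33 with CA and rose by 0.49 with UDCA.

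Markers of cell types were counted as well. Of 15 hepatocyte markers, which define the labelled tissue, 14 were measured and 13 were saturated on 6 or more arrays. With CA 3 fell and with UDCA 2, the medians were -0.37 and -0.34, and no difference between the diets passed. These counts depend on the scaling: by the deposited series values 10 of the 14 were lower with CA (median -0.69), 5 with UDCA and 3 in CA against UDCA. By the scanner's own processed ratios the CA median was 0.09. Over the 9 measured of 10 cholangiocyte markers, 9 rose with CA (median 2.66) and 6 with UDCA (median 1.26), and 8 differed. Their array medians were 1.601 to 3.37 with CA and 0.51 to 2.41 with UDCA. Of 10 stellate cell and fibroblast markers 10 rose with CA and 9 with UDCA, with medians of 2.48 and 2.12 and array medians of 0.86 to 3.43 and 1.79 to 2.69. Of 10 macrophage markers 5 rose and 4 fell with CA and 7 rose and 1 fell with UDCA, and of 6 measured lymphocyte markers 5 rose and 1 fell with CA and 2 rose with UDCA. Endothelial markers gave 4 rises and 1 fall of 9 with CA and 2 rises and 1 fall with UDCA, with medians of 0.13 and 0.10. Of all genes 37.8% rose and 22.4% fell with CA, and 17.2% rose and 8.79% fell with UDCA. The endothelial markers are thus not shown to have moved as a group. The part of the cell types named here in the falls of the members was not tested.

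Adipocyte and pancreas markers bear on lipid genes of other tissues. Of 8 adipocyte markers 3 were measured, and the defining ones, Adipoq, Lep and Plin1, had no tested probe. All 3 rose with CA (median 0.72) and 2 with UDCA (median 0.90), against 37.8% and 17.2% of all genes. Between the diets 1 was lower and 1 higher with CA. The part of adipocytes in the rises of lipid genes was not tested. Of 7 pancreas markers 4 were measured; all 4 fell with CA and none passed with UDCA. Their medians were -3.65 and -3.26 on CA arrays 3 and 4 and between -0.73 and 0.92 on the other 10 arrays. With both of these arrays left out, a choice made after seeing the data, 18 members fell and 3 rose with CA, 7 differences between the diets passed, and the members' medians were -0.61 with CA and -0.31 for the difference. The shares of all genes are not given for this fit. It holds 4 CA arrays in place of 6, so a lost call can come with a value close to its earlier one. Those that no longer passed with CA were Abcd2 (-0.32), Acaa1b (-0.48), Cpt1a (-0.23), Ehhadh (-0.20), Hadhb (-0.33) and Slc27a2 (-0.61). Between the diets they were Abcd2 (-0.55), Hadhb (-0.43) and Slc22a5 (-0.43).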

How the data were processed

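Liver RNA of Abcb4 knockout and wild-type mice was hybridised together on 12 two-colour Agilent whole mouse arrays, 6 per diet. The deposited intensity values, per the file headers, are mean and local background pixel signals of each spot from Feature Extraction 9.5.3, not normalized. The deposited log10 ratios, per the file headers, were background-subtracted and dye-normalized by that software and served as an alternative. The deposited series table holds the authors' log2 values; its centring is not stated, and set against the scanner values its CA columns run as wild type over knockout.

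Here intensities were corrected with normexp (offset 50) and loess within arrays, outlier-flagged values (0.891%) were left out, and spots of a probe were averaged. Probes well above background on at least 5 of 6 arrays of a diet in either channel were kept. The log2 ratios were fitted with limma 3.58.1 in R 4.3.3, with terms for CA, UDCA and dye over all 12 arrays, and p-values were adjusted by Benjamini-Hochberg over all 21689 tested probes; a call is an adjusted p under 0.05, and "fell by" or "rose by" gives log2 units with its standard error. The fit was tested on simulated data. A gene is given by its brightest tested probe, and other probes where they disagree. Tested probes were named through RefSeq for 15543 and by the scanner file for 6146. From each further list, up to 4 genes with the largest called changes per comparison are named; a few results are not reported here. The members and lists were chosen with earlier results of these data known. Alternatives covered background, normalization, dim and saturated spots, probe choice, dye, slide, array weights and leaving out each array. The number of arrays limits the precision.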

Additional observations from a re-analysis of the deposited data

Results flagged for a closer look

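Of 75 groups of 4 to 6 arrays with a value (a member in a diet), 3 had 1 array standing apart from the others, which is 4% where chance gives about 1 in 20. Cpt2 read 0.4957 on CA array 4 with the nearest array at -0.4122, and the spot was saturated on every array. Slc25a20 read 0.1238 on UDCA array 5 with the nearest at -0.4201. Acads read -2.4967 on CA array 3 with the nearest at -1.1033.

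For 10 members the ratio to wild type differed between the diets by the test of the difference itself, each lower with CA. The differences in log2 were -2.2473 for Cyp4a10, -1.3512 for Angptl4, -1.2344 for Pex11a, -0.8454 for Slc25a20 and -0.7955 for Ech1. They were -0.7493 for Decr1, -0.6996 for Abcd2, -0.626 for Ppara, -0.5797 for Hadhb and -0.5213 for Slc22a5. Abcd2 passed the filter on dim probes only through UDCA-fed knockout RNA.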

How the results depend on the processing

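Of 3260 values recomputed for single members, 2952 stayed on their side of the threshold, 171 lost a call, 137 gained one and none turned direction with a call. Median centring in place of loess left 9 members called with CA, 3 with UDCA and 0 differences (4 with an unadjusted p under 0.05, limma), with a UDCA median of 0.0364. Of all genes 30.5%, 10.7% and 4.36% were called under that setting. The red channel alone left 16, 3 and 0 members (8 differences unadjusted), against 17.5%, 3.34% and 0.146% of all genes with a red value. UDCA calls rose to 22 with the deposited series table, 17 with the mean of all probes, 21 with array weights and 17 with the least saturated probe and saturated spots left out, which 29 members allowed. That last setting gave a CA median of -1.1773 and 16 differences, and the series table gave 21 differences. Leaving out 1 array at a time gave 21 to 27 members called with CA, 7 to 12 with UDCA and 8 to 12 differences, with medians of -0.729 to -0.5258, -0.4121 to -0.2433 and -0.484 to -0.2746. With the replicate block 11 differences passed, with a median of -0.5279. Same-numbered arrays did not deviate together (correlations of -0.58 to 0.12). Such correlations did not single out the dye-swap arrays of 1 liver either, so they cannot show whether the numbers pair the samples. The causes of these changes were not tested. Where no share of all genes stands beside a count, a change over all genes and one in the members cannot be told apart. Saturation limits the abundant members: 16 of 38 brightest probes were at the limit on 6 or more arrays.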
